A study of Mus musculus with 96 samples.

Results

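Transcript levels of 9 transporter genes of the hepatocyte were followed in RNA sequencing libraries of mouse liver cells. The 9 were Slco1b2, Slco1a1, Slco1a4 and Slco2b1, which encode organic anion transporting polypeptides, Slc22a5 and Slc22a7 of the organic ion carriers, and the ATP-driven pumps Abcc2, Abcc3 and Abcc12. They were chosen by gene symbol out of 25095 symbols listed, with earlier results of these data known, so counts of members called are no independent evidence. The transcript with the highest mean stood for each gene. In all, 96 libraries were analysed, 48 of hepatocytes and 48 of liver macrophages, each group of genotype, cell type and zeitgeber time (ZT, hours after lights on) holding 3 libraries. Male C57BL/6J mice had eaten a high fat and sucrose diet for 4 weeks, and livers were taken at ZT4, ZT10, ZT16 or ZT22. In every genotype adult mice had received an adeno-associated virus whose hepatocyte promoter, TBG, drove either Cre or GFP. Control mice carried floxed alleles and received GFP. In RevDKO mice Cre was directed at Nr1d1 and Nr1d2, the genes of the repressors REV-ERBα and REV-ERBβ of the circadian clock. In RevScapTKO mice it was directed at these genes and at Scap, whose protein escorts the SREBP factors of lipid synthesis, and in ScapKO mice at Scap alone. In every group, then, the macrophages were not the cells at which deletion was aimed. No label ties a library to a named mouse, so p-values measure the spread between libraries.

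Hepatocytes take up bile acids, hormones, drugs and bilirubin from blood across the sinusoidal membrane, in part through the OATP carriers of the Slco genes. Organic cations, carnitine and small anions enter through carriers of the Slc22 genes. After conjugation, products leave the cell through ABC pumps. MRP2, the product of Abcc2, pumps conjugated bilirubin and glutathione conjugates into bile, whereas MRP3, the product of Abcc3, returns conjugates to blood. Several of these genes are textbook targets of the nuclear receptors for bile acids, foreign compounds and fatty acids.

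Values are RPKTM, an RPKM scaled up by 10 and quantile normalized by the authors within each of 4 tables, so that sequencing depth is unknown and values of different tables may be set side by side but not tested. Because RPKTM is per transcript length, levels of different genes may be compared. Differences are in log2(RPKTM + 1) and were tested with limma, with p-values adjusted by Benjamini and Hochberg over all genes tested and a threshold of 0.05. All 9 genes passed the filter on low values in both tested tables, Abcc12 through the RevScapTKO libraries alone in both, so that it had to differ there and its contrasts with RevScapTKO are given as values with no test.

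The labels were checked on the targeted genes. Nr1d1 had a higher mean in hepatocyte libraries labelled RevDKO (138 RPKTM) than in those labelled Control (90.7 RPKTM), with a log2 difference of 1.55, and Nr1d2 was not lower either. The values cover whole transcripts and which exons Cre removed was not examined, so these 2 levels do not settle the labels, and genotype names stand throughout for libraries so labelled. Arntl, the clock gene that the REV-ERB proteins repress, had means of 60.8 ± 45.6 RPKTM for Control and 139 ± 12.3 for RevDKO (SD over 12 libraries), a log2 difference of 1.83 (adjusted p 1.60e-11). Scap was lower in libraries labelled RevScapTKO, by -1.40 against RevDKO. The titles of the ScapKO hepatocyte libraries name hepatocytes while their cell type field names macrophages. The titles were followed, and all 12 hepatocyte markers were detected in them, with a summed level of 433634 to 1356870.0 RPKTM. One of them, ZT22 replicate 2, was high in markers of other liver cells, and another, ZT16 replicate 3, held Xist at 129.7 RPKTM beside Y-linked transcripts. The 12 macrophage markers were all higher in RevScapTKO than in RevDKO hepatocytes, with summed levels of 981 to 6429 and 409 to 2488 RPKTM. Summed levels in Control hepatocytes were 247 to 3239.9 RPKTM. Markers of some other cells also had the highest median sums in RevScapTKO hepatocytes, with ranges that overlapped. In RevScapTKO, RevDKO and Control these medians were 2575, 1187 and 835 RPKTM for stellate cells and 1851, 1227 and 1030 for endothelial cells. They were 145, 65.2 and 55.8 for cholangiocytes, while lymphocyte and neutrophil markers had 7.44, 4.37 and 8.52. In a bulk library fewer cells of a type and less RNA per cell cannot be told apart. Of the 12 RevScapTKO hepatocyte libraries, 4 had the lowest median correlations with the other libraries (0.959 to 0.969, against 0.974 for the next one), namely ZT4 replicates 2 and 3, ZT10 replicate 2 and ZT22 replicate 2. Differences of Abcc2, Abcc3, Slco2b1, Slc22a7 and Slco1a1 are given with and without them, a choice made after seeing the data. For all other named genes the differences from RevScapTKO rest on all libraries.

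Promoters were read from RefSeq (build GRCm38.p6) as the 250 bases before the start, and 7 of 9 members had an entry, Slc22a7 and Abcc3 having none. The nuclear receptor core element AGGTCA was searched on both strands. It occurs in 14% of 32851 promoters of that length. It was present in the promoters of Slco1a1, Slco1b2 and Abcc2, which are shown first, 5′ to 3′ on the strand of the gene, with the match in capitals (TGACCT where it lies on the other strand). The first base of the match stood at -134 and -24 in Slco1a1, at -81 in Slco1b2 and at -49 in Abcc2, counted from the start. The promoters of Slco1a4, which was higher in RevDKO than in Control, and of Abcc12, the lowest member in Control, follow, and these letters were not in their windows.
Slco1a1 promoter, chr6:141946963-141947212, minus strand: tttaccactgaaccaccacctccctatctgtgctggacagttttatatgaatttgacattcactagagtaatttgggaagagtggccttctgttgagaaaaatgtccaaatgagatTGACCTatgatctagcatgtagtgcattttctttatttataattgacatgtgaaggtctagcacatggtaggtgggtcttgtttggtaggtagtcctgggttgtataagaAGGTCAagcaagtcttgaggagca
Slco1b2 promoter, chr6:141629268-141629517, plus strand: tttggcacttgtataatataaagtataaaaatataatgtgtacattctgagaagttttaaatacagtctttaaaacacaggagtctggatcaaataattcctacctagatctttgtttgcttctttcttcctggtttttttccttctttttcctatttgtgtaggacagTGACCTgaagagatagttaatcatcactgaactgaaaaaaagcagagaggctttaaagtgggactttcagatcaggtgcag
Abcc2 promoter, chr19:43782058-43782307, plus strand: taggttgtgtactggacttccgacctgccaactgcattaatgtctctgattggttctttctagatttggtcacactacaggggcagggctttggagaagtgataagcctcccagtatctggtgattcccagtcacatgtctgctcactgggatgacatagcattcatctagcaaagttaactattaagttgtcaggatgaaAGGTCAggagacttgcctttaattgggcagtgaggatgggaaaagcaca
Slco1a4 promoter, chr6:141856221-141856470, minus strand: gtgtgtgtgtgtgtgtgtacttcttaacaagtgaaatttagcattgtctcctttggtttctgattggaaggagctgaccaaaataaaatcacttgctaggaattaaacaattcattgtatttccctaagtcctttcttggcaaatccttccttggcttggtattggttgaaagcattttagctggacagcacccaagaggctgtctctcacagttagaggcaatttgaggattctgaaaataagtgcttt
Abcc12 promoter, chr8:86566591-86566840, minus strand: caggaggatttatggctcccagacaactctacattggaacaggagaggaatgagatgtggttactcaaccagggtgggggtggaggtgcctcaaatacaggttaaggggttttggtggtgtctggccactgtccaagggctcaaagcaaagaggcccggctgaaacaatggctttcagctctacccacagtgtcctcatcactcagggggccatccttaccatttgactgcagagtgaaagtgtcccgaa
The E-box CACGTG, in 6.02% of promoters, and the sterol element core CACCCCA, in 6.68%, were not in the windows of the 7 members with an entry. Base composition differed widely among them, from 33.6% G and C in Slco1b2 to 73.6% in Slc22a5. A match is a description of the sequence only.

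In Control hepatocytes the 9 transcripts spanned more than 4 orders of magnitude. Slco1b2 was the highest at 7059 ± 1266 RPKTM, followed by Abcc2 at 3769 ± 827, Slco1a1 at 2586 ± 461, Abcc3 at 1022 ± 300.0 and Slco2b1 at 844 ± 122 (SD, n = 12 each). Then came Slco1a4 at 247 ± 82.2, Slc22a7 at 149.8 ± 68.4 and Slc22a5 at 84.5 ± 19.6, and Abcc12 was last at 0.505 ± 1.1. Neighbours in this order overlapped in range except at 2 steps, between Slco2b1 and Slco1a4 and between Slc22a5 and Abcc12. Slco1b2 exceeded Abcc2 in 12 of 12 libraries all the same, and Abcc2 exceeded Slco1a1 in 11 of 12. In RevScapTKO hepatocytes Abcc2 had the highest mean, 7193 ± 7923 RPKTM, but it exceeded Slco1b2 in 5 of 12 libraries, and 1 library at 31947 RPKTM set that mean.

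**Figure D1:**
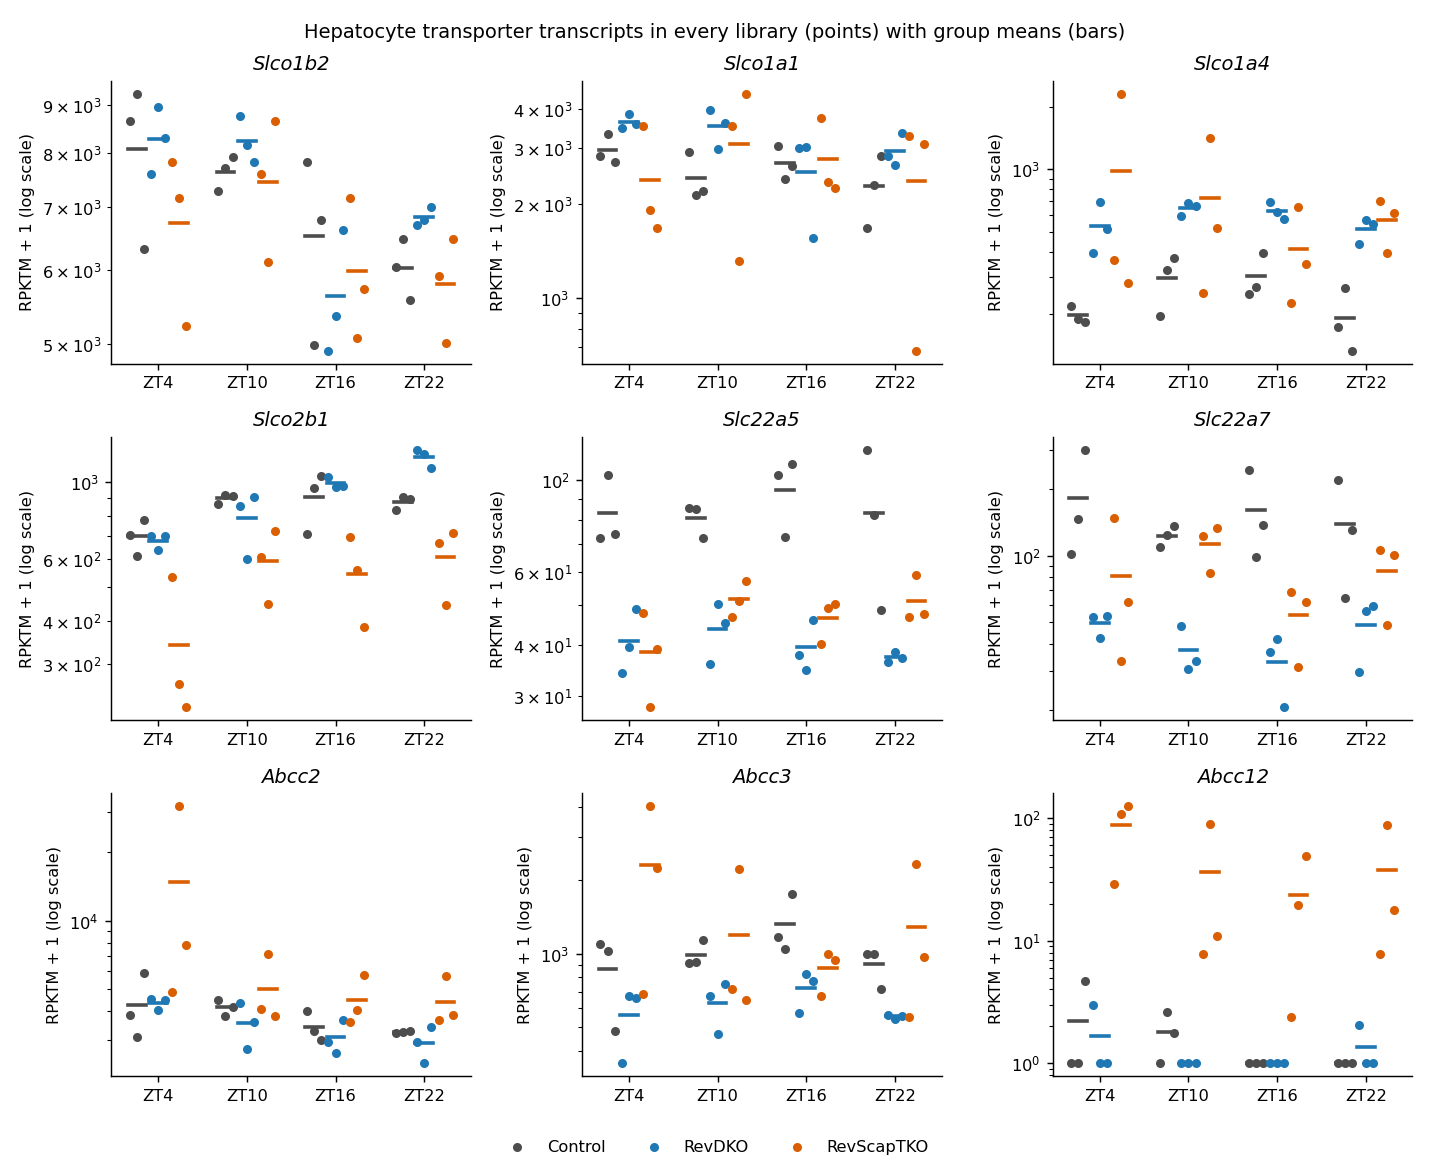
Levels of the 9 transporter transcripts in hepatocytes (RPKTM + 1, log axis, its range differing between panels) by zeitgeber time and genotype, with a point for each library and a bar for the mean of 3. Slc22a5 and Slc22a7 lie lower in RevDKO than in Control at all 4 times, Slco1a4 lies higher, and only RevScapTKO libraries exceed 3.68 RPKTM of Abcc12.

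Libraries labelled RevDKO were first compared with Control. Averaged over the day, 3 of 9 passed the test between RevDKO and Control, against 4.43% of all 13326 genes. Both Slc22 carriers fell and Slco1a4 rose, while the 2 highest uptake carriers and Abcc2 did not pass. The median difference of the 9 was -0.13, against -0.01 over all genes.

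Slc22a5 (NM_001362711, chromosome 11, 53678044 to 53705205, minus strand, mm9) encodes OCTN2, the sodium-dependent carnitine carrier that supplies mitochondrial fatty acid import. The lowest, median and highest levels were 47.6, 82.8 and 117 RPKTM in Control and 33.3, 37.0 and 49.1 in RevDKO (n = 12 each). Within each of the 4 time points the groups did not overlap, all 3 RevDKO libraries lying below all 3 Control libraries. At ZT16, for example, Control libraries measured 102, 71.8 and 108 RPKTM and RevDKO libraries 36.8, 33.7 and 44.8. Such a lack of overlap, in either direction, was seen in 12.2%, 17.1%, 14.6% and 16.3% of genes at ZT4, ZT10, ZT16 and ZT22. The mean difference was -1.06 (SE 0.12, adjusted p 2.90e-07), and the single time points passed at ZT4, ZT16 and ZT22 (log2 differences of -1.02, -1.25 and -1.06, adjusted p 0.0427, 0.00902 and 0.0344), where 0.585%, 0.300% and 0.488% of all genes passed. Leaving out 1 library ended these time point calls in 12, 4 and 5 of 24 cases (adjusted p up to 0.354, 0.0891 and 0.357), and the mean-level call in none. Of the 50-base words of this transcript, 27.1% also occur in other genes, mostly in Slc22a21, so that reads could be split between them. Slc22a21 itself had means of 3.56 ± 1.86 RPKTM for Control and 1.55 ± 1.56 for RevDKO (SD over 12 libraries).

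Slc22a7 (NM_144856, chromosome 17, 46569134 to 46575426, minus strand) encodes OAT2, a carrier of small organic anions. It was the only member whose 12 RevDKO libraries all lay below all 12 Control libraries, a separation seen in 0.360% of genes. Levels ran over 63.7, 132 and 298 RPKTM in Control and 19.7, 41.3 and 58.1 in RevDKO (lowest, median and highest). The mean difference was -1.78 (SE 0.23, adjusted p 2.48e-06). At ZT16, with 243, 97.7 and 136 RPKTM in Control and 35.6, 41.0 and 19.7 in RevDKO, it passed alone (log2 difference -2.23, adjusted p 0.0165). Without Control replicate 1 or 3 or RevDKO replicate 1 or 3 of ZT16 that call was lost (adjusted p up to 0.192).

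Slco1a4 (NM_001355577, chromosome 6, 141753961 to 141804741, minus strand) encodes OATP1A4, an uptake carrier of bile acids and steroid conjugates that is inducible by foreign compounds. Control libraries held 132, 234 and 394 RPKTM and RevDKO libraries 391, 584 and 696 (lowest, median and highest), so the whole groups met only at the edge, the highest Control library lying above the lowest RevDKO one. At ZT4, ZT10, ZT16 and ZT22 alike the 3 RevDKO libraries were above the 3 Control libraries. Groups without overlap, in either direction, were seen in 12.2%, 17.1%, 14.6% and 16.3% of genes at these times. The mean difference was 1.28 (SE 0.26, adjusted p 0.00168), and no single time point passed.

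Abcc3 (NM_029600, chromosome 11, 94204609 to 94254304, minus strand) lay at 616 ± 134 RPKTM with RevDKO and at 1022 ± 300.0 with Control (SD, n = 12 each), but the difference of -0.71 (SE 0.24, adjusted p 0.0915) did not pass. It passed when the Control library at ZT4 replicate 3, whose 483 RPKTM was the lowest of its group, was left out (adjusted p 0.0428), when the 4 RevScapTKO libraries above were left out (adjusted p 0.00133) and when these 2 genotypes were fitted alone (adjusted p 0.00177), while the fit of 3 genotypes shares 1 estimate of spread. At ZT10, ZT16 and ZT22 the groups did not overlap, as was the case for 17.1%, 14.6% and 16.3% of genes.

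The remaining members did not pass. Slco1b2 (NM_020495, chromosome 6, 141578039 to 141635167, plus strand), the liver-specific OATP, measured 7241 ± 1262 RPKTM in RevDKO, with a log2 difference of 0.04 (SE 0.10, adjusted p 0.904). Slco1a1 (NM_013797, chromosome 6, 141855802 to 141895483, minus strand), an OATP of the male rodent liver, measured 3162 ± 652, with 0.28 (SE 0.21, adjusted p 0.552). For Slco2b1 (NM_001252530, chromosome 7, 106806314 to 106855352, minus strand), an OATP of steroid sulfates, the value was 0.08 (SE 0.12, adjusted p 0.807), and for Abcc2 (NM_013806, chromosome 19, 43856798 to 43912708, plus strand) it was -0.13 (SE 0.19, adjusted p 0.81). A p that misses the threshold does not show that these levels were equal. The exons of Slco2b1 share 579 bases with the opposite-strand gene Gm15635, which matters if counting ignored the strand.

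**Figure D2:**
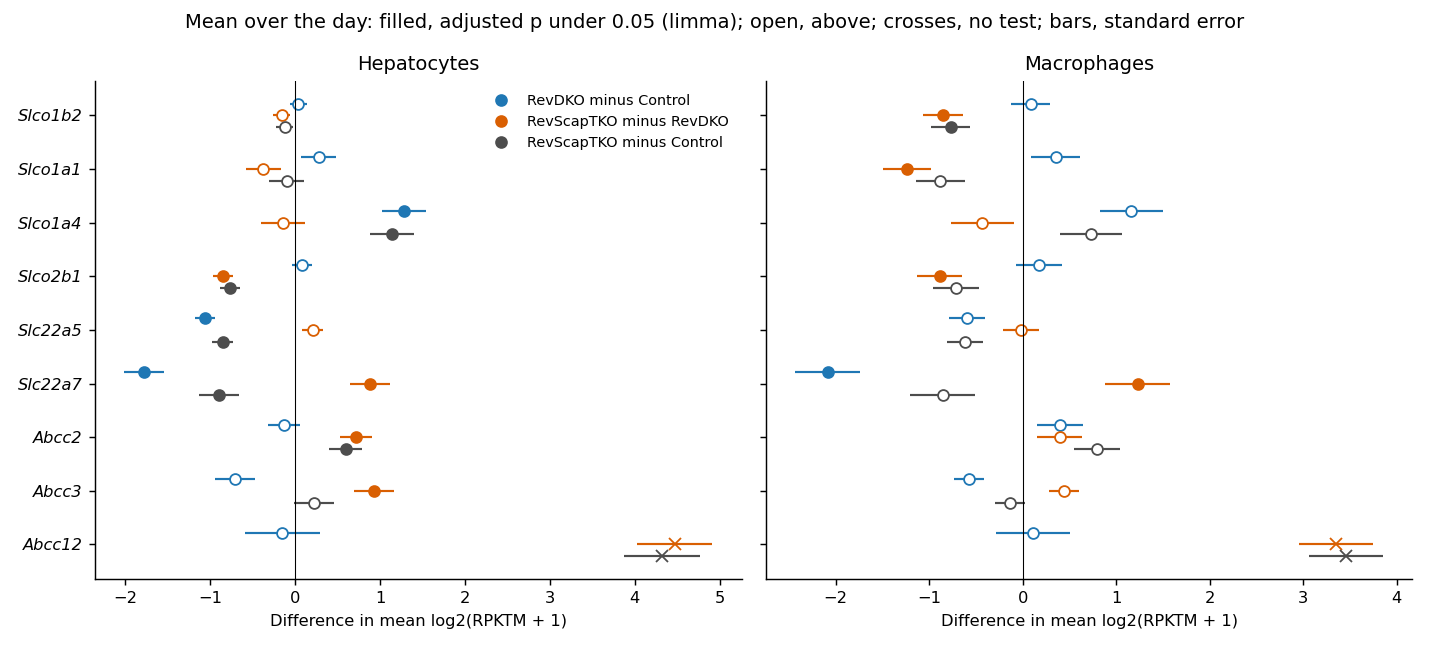
Difference between genotypes in mean log2(RPKTM + 1) over the 4 time points for each transporter, in hepatocytes (left) and macrophages (right), with standard errors as bars and filled points where the limma adjusted p was under 0.05. Crosses mark Abcc12 in contrasts with RevScapTKO, which has no test. In hepatocytes 3 of 9 points are filled for RevDKO against Control, and of the other 8 members 4 are filled for RevScapTKO against RevDKO and 5 for RevScapTKO against Control.

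Libraries labelled RevScapTKO were then compared with the other genotypes. Of the 8 members other than Abcc12, 4 passed between RevScapTKO and RevDKO, against 26.2% of all genes, and 5 between RevScapTKO and Control, against 35.9%. Against RevDKO Abcc3, Slc22a7 and Abcc2 rose and Slco2b1 fell. Without the 4 RevScapTKO libraries of lowest correlation 2 of the 8 passed against RevDKO, Abcc2 and Abcc3 being lost, and 4 of the 8 against Control, where 9.21% and 19.3% of all genes passed. With the macrophage marker level as a covariate 2 of the 8 passed in each contrast, against 2.32% and 5.49% of all genes. Both contrasts share the RevScapTKO libraries.

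Abcc12 (NM_172912, chromosome 8, 89028740 to 89090489, minus strand) encodes MRP9, an ABCC pump whose substrates are poorly known. It was listed at 0 in 9 of 12 Control and 10 of 12 RevDKO hepatocyte libraries, whose highest values were 3.68 and 2.02 RPKTM. In RevScapTKO no library was at 0. The values were 28.1, 107 and 124 RPKTM at ZT4, 6.84, 88.4 and 9.99 at ZT10, 1.4, 18.6 and 48.1 at ZT16 and 6.84, 86.3 and 16.9 at ZT22. At each of the 4 times all 3 RevScapTKO libraries lay above all libraries of both other genotypes, and the lowest, 1.40 RPKTM at ZT16, lay below the highest Control value at ZT4. Groups without overlap were seen in 16.3% to 24.1% of genes against RevDKO and in 22.5% to 28% against Control at these times. Abcc12 passed the filter through the RevScapTKO libraries alone, so its separation is a description and these shares are no test of it. No fold is given, since most values on the other side were 0.

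Abcc2, the bile canalicular pump, measured 3578, 4484 and 31947 RPKTM in RevScapTKO, 2357, 3493 and 4542 in RevDKO and 2993, 3535 and 5911 in Control (lowest, median and highest, n = 12 each). The RevScapTKO library at ZT4 replicate 2, at 31947 RPKTM, lay far above its 2 companions at 4869.9 and 7810.5. The mean differences were 0.72 (SE 0.19, adjusted p 0.00571) and 0.59 (SE 0.19, adjusted p 0.0151). At ZT4, where 9.28% of genes passed, the difference of 1.3 against RevDKO (adjusted p 0.0298) fell to 0.50 (adjusted p 0.366) without that library. It was also lost without any 1 of the 3 RevDKO libraries of ZT4. Over the day the difference against RevDKO was 0.31 (adjusted p 0.113) without the 4 libraries and 0.30 (adjusted p 0.744) with the macrophage covariate, and against Control 0.19 (adjusted p 0.305) and 0.16 (adjusted p 0.817).

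Abcc3 ran over 549.9, 952 and 4026 RPKTM in RevScapTKO (lowest, median and highest). The same 4 libraries held 2234 to 4026 RPKTM and the other 8 held 549.9 to 999, with a median of 701. These 8 lay within the Control range of 483 to 1760.2 but all below its median of 1014. RevDKO libraries ran from 355 to 824 RPKTM. Against RevDKO the difference was 0.93 (SE 0.24, adjusted p 0.00471), and against Control 0.22 (SE 0.24, adjusted p 0.495). Without the 4 libraries these became 0.29 (adjusted p 0.300) and -0.42 (adjusted p 0.0744), the direction against Control having turned.

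Slco2b1 was the uptake carrier that fell, to 225, 546 and 721 RPKTM in RevScapTKO from 601, 937 and 1235 in RevDKO (lowest, median and highest). All RevScapTKO libraries lay below all RevDKO libraries at ZT4, ZT16 and ZT22, and below all Control libraries at all 4 times. Groups without overlap were seen in 24.1%, 16.3%, 18.3% and 22.7% of genes against RevDKO, in the order of the times, and in 25.5%, 28%, 22.5% and 24.4% against Control. The mean differences were -0.85 (SE 0.12, adjusted p 5.28e-06) and -0.77 (SE 0.12, adjusted p 1.37e-05), and they were -0.56 and -0.48 without the 4 libraries and -0.67 and -0.58 with the macrophage covariate, past the threshold in each case. In RevDKO hepatocytes the Slco2b1 level followed the macrophage marker level over the 12 libraries (Pearson r 0.897, Spearman rho 0.895, permutation p adjusted over 68 relations 0.00091 and 0.00249), and r was 0.824 without the 2 libraries farthest from the median. Both were highest at ZT22. For deviations from the time point means, a choice made after seeing the data, r was 0.685 and did not pass (exact permutation p within times 0.120, adjusted over 68 relations 0.273). In RevScapTKO hepatocytes such deviations went the other way (r -0.847, exact permutation p 0.00231, adjusted 0.0612). Those 12 libraries include the 4 of lowest correlation. For Control r was 0.481 (exact permutation p 0.334, adjusted 0.505). The part of macrophage RNA in the Slco2b1 level was not tested.

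Of the other carriers, Slc22a7 lay between RevDKO and Control at 30.5, 74.9 and 147 RPKTM (lowest, median and highest), 0.88 (SE 0.23, adjusted p 0.00551) from RevDKO and -0.90 (SE 0.23, adjusted p 0.00315) from Control. The difference from RevDKO was 1.3 (adjusted p 3.65e-04) without the 4 libraries, while that from Control no longer passed (-0.47, adjusted p 0.163), nor did it with the macrophage covariate (-0.60, adjusted p 0.357). Slc22a5 stayed at 45.9 ± 8.16 RPKTM, with 0.21 (SE 0.12, adjusted p 0.213) from RevDKO and -0.85 (SE 0.12, adjusted p 3.03e-06) from Control. Slco1a4 spread over 225, 454 and 2311 RPKTM, its 2 highest values being 2311 at ZT4 replicate 2 and 1411 at ZT10 replicate 2. Both belong to the 4 libraries of lowest correlation, whose median was 901 RPKTM, against 440 in the other 8. With all libraries its difference was 1.14 (SE 0.26, adjusted p 9.89e-04) from Control and -0.15 (SE 0.26, adjusted p 0.712) from RevDKO, and the first did not pass with the macrophage covariate (0.84, adjusted p 0.218). Slco1b2 passed in neither contrast (-0.16, SE 0.10, adjusted p 0.238 from RevDKO, and -0.12, SE 0.10, adjusted p 0.345 from Control).

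Slco1a1 passed in neither contrast with all libraries (-0.38, SE 0.21, adjusted p 0.177 from RevDKO, and -0.10, SE 0.21, adjusted p 0.731 from Control), but its RevScapTKO libraries parted. The 4 libraries of lowest correlation held 679.9 to 1907 RPKTM and the other 8 held 2246 to 4472, the Control range being 1677, 2683 and 3334 (lowest, median and highest). Without the 4 the difference from Control was 0.38 (adjusted p 0.0426), opposite in sign to the value with all libraries.

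These 4 libraries parted from the other 8 in several members at once. They held 86.3 to 124 RPKTM of Abcc12 against 1.40 to 48.2 in the other 8, and 225 to 447 RPKTM of Slco2b1 against 382 to 721. Since the libraries fall into these sets, no correlation between members over all 12 is given. Among the 8, Slco2b1 and Abcc2 went in opposite directions (r -0.947, rho -0.786, exact permutation p 0.00112 and 0.0279, adjusted over 36 relations 0.0330 and 0.251), and r was -0.731 without the 2 libraries farthest from the median. Slco1a1 and Slco1b2 went together among the 8 (r 0.894, rho 0.881, exact p 0.00184 and 0.00724, adjusted 0.0330 and 0.130; r 0.818 without the 2 farthest). The rank correlations did not pass after adjustment. The 8 were set apart after seeing the data, and the permutations did not hold time of day fixed. A course over the day shared by both genes was therefore not told apart from a relation between libraries. The macrophage libraries that carry the same time points and replicate numbers as the 4 held the 4 highest Abcc3 values of the RevScapTKO macrophages, 895, 730.1 and 726 RPKTM, and 676 at ZT22, the next being 520.3. Whether same-numbered libraries of the 2 cell types came from the same mouse is not given in the sources used here.

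**Figure D3:**
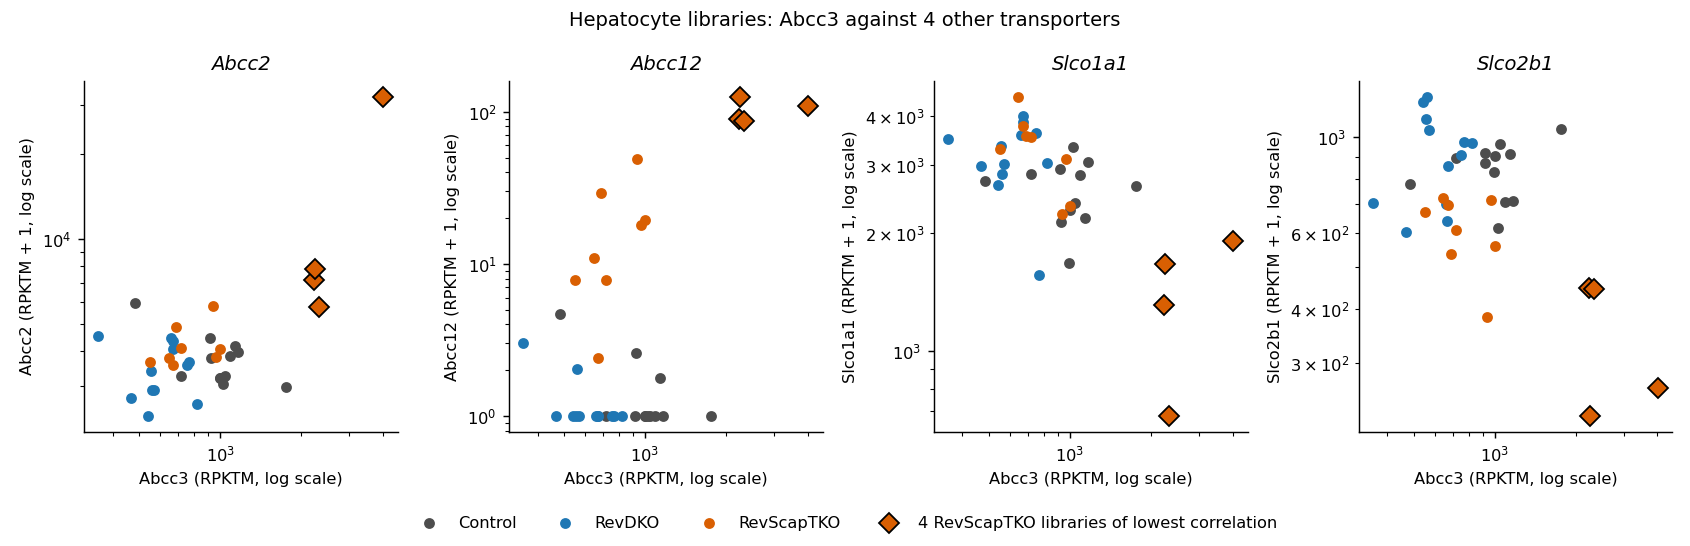
Each point is a hepatocyte library, placed by Abcc3 (RPKTM, log axis) and by Abcc2, Abcc12, Slco1a1 or Slco2b1 (RPKTM + 1, log axis), with diamonds for the 4 RevScapTKO libraries of lowest correlation. The diamonds lie at 2234 to 4026 RPKTM of Abcc3, above all other libraries, and at the low end of Slco1a1 and Slco2b1.

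No member passed the test of a changed 24 h rhythm in any of the 3 contrasts of either cell type, and in hepatocytes 0.203% of genes did between RevDKO and Control, 0% between RevScapTKO and RevDKO and 0.188% between RevScapTKO and Control. In macrophages 0% of genes did. At an unadjusted p under 0.05, 4.91%, 5.06% and 7.14% of genes passed in hepatocytes in these contrasts, and among the members only Abcc3 in RevScapTKO minus Control (p 0.0428, adjusted p 0.678). In macrophages it was Slc22a7 in RevDKO minus Control (p 0.0352, adjusted p 0.891), where 5.5% of genes passed without adjustment, against 3.57% and 1.71% in the other contrasts. JTK_CYCLE, a rank test for rhythms with the series entered 2 times, called Slco1a4 in Control (1 of 9, against 27.5% of genes), Slco2b1 and Abcc2 in RevDKO (2 of 9, against 27.9%) and no member in RevScapTKO (0 of 9, against 18.3%). With the series entered once, only Slco2b1 in RevDKO was called, against 10.6%, 9.48% and 3.38% of genes in Control, RevDKO and RevScapTKO. Its time point means rose from 679 RPKTM at ZT4 to 1178 at ZT22, with libraries at 699.8, 638 and 697 and 1235, 1200.0 and 1097. All 3 at ZT22 lay above the Control libraries of that time, which measured 828, 904 and 894. The groups of that time did not overlap in 16.3% of genes. A 24 h cosine regression also called Slco2b1 (adjusted p 0.0297) and Slco1b2 (adjusted p 0.0428) in RevDKO, where 5.4% of genes passed, and no member in Control, where 8.98% did. Slco1b2 peaked in the light phase there, at 7592, 8942 and 8287 RPKTM at ZT4 against 4912, 5357 and 6607 at ZT16.

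The other transporters of the liver were described from a list of 47, of which 39 passed the filter in hepatocytes. Between RevDKO and Control 2 were higher and 3 lower, against 4.43% of all genes called. Abca8b rose by 0.56 and the bile salt export pump Abcb11 by 0.45, while Abcb1a, a P-glycoprotein, differed by -1.19, the prostaglandin carrier Slco2a1 by -0.43 and the cation extruder Slc47a1 by -0.36 (log2 differences, limma adjusted p 0.00318, 0.0208, 0.0159, 0.0172 and 0.00176). Between RevScapTKO and RevDKO 7 were higher and 7 lower, against 26.2% of all genes called, the largest rises being Abcc5 (1.12), Abcb1a (1.09) and the phospholipid floppase Abcb4 (0.89). The largest falls were the bile acid carrier Slc10a1 (-0.98), Slco2a1 (-0.84) and the nucleoside carrier Slc29a1 (-0.64). Between RevScapTKO and Control, where 35.9% of all genes were called, 9 were higher, led by Abcc5 (1.13), Abcd2 (1.10) and Abcc9 (1.06), and 10 lower, led by Slco2a1 (-1.27), Slc10a1 (-0.79) and Slc22a23 (-0.66). All 12 macrophage markers were also higher in RevScapTKO, with a median of 1.09 against RevDKO. With their level as a covariate the calls over all genes against RevDKO went from 3498 to 309, and without the 4 libraries of lowest correlation to 1214. The part of RNA from macrophages, or from stellate cells, endothelial cells and cholangiocytes, in the values of this list was not tested. The medians of the list, 0.02, 0.04 and 0.01, were near those of all genes (-0.01, -0.03 and -0.04). Slc10a1, which like Slco1b2 takes up bile acids, had means of 1685 ± 319.6 RPKTM (Control), 1953 ± 547 (RevDKO) and 1154 ± 639.5 (RevScapTKO), with SD over 12 libraries.

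A few regulators of transporter genes were also read, and those named are not the whole list. Between RevDKO and Control Nr1i3, the foreign compound receptor CAR, was lower (-0.40, limma adjusted p 0.0209). Between RevScapTKO and RevDKO Nfe2l2, the NRF2 factor of the oxidant response, was higher (0.35, adjusted p 0.0119) and Nr0b2, the bile acid responsive repressor SHP, was lower (-0.88, adjusted p 0.0312). Between RevScapTKO and Control Nfe2l2 was higher (0.26, adjusted p 0.0459), and Nr0b2 (-1.18, adjusted p 0.00301), the fatty acid receptor Ppara (-0.50, adjusted p 0.00151) and Nr1i3 (-0.37, adjusted p 0.00684) were lower. Nr1i2, the foreign compound receptor PXR, did not differ past the threshold in any contrast and measured 218 ± 32.0, 204 ± 27.8 and 212 ± 43.1 RPKTM in Control, RevDKO and RevScapTKO (SD, n = 12 each).

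Genes with the most similar pattern over the 12 hepatocyte group means were found by Pearson's r among 13326 genes, with genotype and time shared by all points. They were Mup17 (0.944) and Rab43 (0.92) for Slc22a5, Tapbpl (0.880) and Mettl18 (0.879) for Slc22a7, and Gucy2c (0.911) and Pyroxd2 (0.889) for Slco1a4. Sds (0.984) and Tecr (0.973) were nearest to Slco2b1, Syt1 (0.934) and Nat2 (0.928) to Slco1b2, and Bcap29 (0.916) and Elp4 (0.886) to Slco1a1. Wdr62 (0.947) and Cenpt (0.947) were nearest to Abcc2, Baz1b (0.924) and Cbr1 (0.909) to Abcc3, and Vmn2r3 (0.991) and Cfap44 (0.982) to Abcc12.

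In the macrophage libraries the same transcripts were present at lower listed levels. Control macrophages held 603 ± 307 RPKTM of Slco1b2, 234 ± 147 of Slco1a1, 30.4 ± 10.7 of Slc22a7 and 619 ± 349 of Abcc2 (SD, n = 12 each), in a table normalized apart from that of hepatocytes. Hepatocyte markers were present there too. All 12 were detected, with summed levels of 63182 to 2410540.0 RPKTM in Control, 56406 to 132550.0 in RevDKO and 37749.9 to 832869 in RevScapTKO. The summed level in Control hepatocytes was 507430.0 to 1105420.0 RPKTM. In RevDKO macrophages the uptake carriers followed the mean level of these markers over 12 libraries (Pearson r 0.838 for Slc22a7, 0.911 for Slco1a1, 0.874 for Slco1a4, 0.895 for Slco1b2 and 0.918 for Slco2b1). The Spearman rho was 0.837, 0.853, 0.853, 0.839 and 0.958, and r stayed between 0.819 and 0.954 without the 2 libraries farthest from the median. Permutation p-values adjusted over 68 relations were at most 0.00235 for r and 0.00929 for rho. Abcc3 went the other way (r -0.795, rho -0.881, adjusted p 0.00816 and 0.00476; r -0.777 without the 2 farthest), and for Slc22a5 r was 0.014 and rho 0.301 (adjusted p 0.991 and 0.536). For deviations from the time point means r was 0.669, 0.714, 0.595, 0.693 and 0.817 for the 5 uptake carriers, in the same order, with exact permutation p within times of 0.0100 to 0.0579. It was -0.615 for Abcc3 (exact p 0.133). None of these passed after adjustment over 68 relations (adjusted p 0.0816 to 0.197, and 0.291 for Abcc3). Such deviations gave r 0.522 for Abcc2 in RevDKO (exact p 0.161, adjusted 0.323). For the 5 uptake carriers r was 0.440 to 0.668 in Control (exact p 0.118 to 0.458, adjusted 0.273 to 0.598). In RevScapTKO it was 0.215 to 0.637 (exact p 0.0108 to 0.515, adjusted 0.0816 to 0.625). Abcc3 had r -0.443 in Control and -0.140 in RevScapTKO (exact p 0.321 and 0.839).

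**Figure D4:**
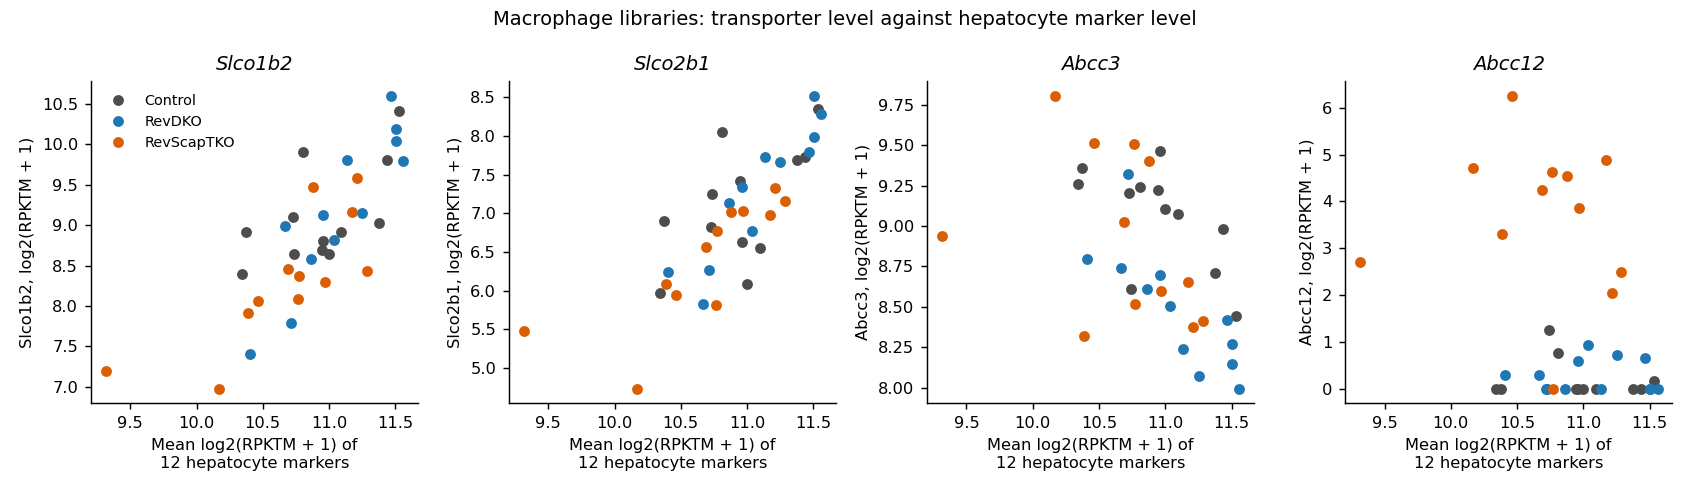
Each point is a macrophage library, with the mean log2(RPKTM + 1) of 12 hepatocyte markers on the horizontal axis and the log2(RPKTM + 1) of a transporter on the vertical axis. Slco1b2 and Slco2b1 rise with the markers, Abcc3 falls in RevDKO, and only RevScapTKO libraries exceed 1.40 RPKTM of Abcc12.

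Between RevDKO and Control macrophages 1 of 9 members passed, against 0.574% of 13947 genes. It was Slc22a7, with 12, 32.2 and 50.5 RPKTM in Control and 0, 7.84 and 52.4 in RevDKO (lowest, median and highest), a difference of -2.09 (SE 0.35, adjusted p 9.04e-04). Hepatocyte markers did not pass in that contrast (0 of 12, median 0.31). With the hepatocyte marker level as a covariate Slc22a7 still passed (-2.30, adjusted p 6.77e-05), and the 0.574% above belongs to the fit without it. Slco1a4, at 94.0 ± 74.3 RPKTM against 37.0 ± 26.4 in Control, did not pass (1.16, SE 0.34, adjusted p 0.117), nor did Abcc3 (-0.57, SE 0.16, adjusted p 0.0989). Both passed once replicate 3 of Control at ZT22 was left out (1.26, adjusted p 0.0364, and -0.63, adjusted p 0.0220), and 3.42% of all genes did. Slco1a4 also passed without the RevDKO library at ZT4 replicate 1 (1.34, adjusted p 0.0487).

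Of the 8 members other than Abcc12, 4 passed between RevScapTKO and RevDKO macrophages, against 3% of genes, and 1 between RevScapTKO and Control, against 3.76%. Abcc12 was listed at 0 in 9 of 12 Control and 6 of 12 RevDKO libraries, with maxima of 1.40 and 0.899 RPKTM, and ran over 0, 15.8 and 75.7 RPKTM (lowest, median and highest) in RevScapTKO. Against RevDKO, Slco1a1 (-1.24, SE 0.26, adjusted p 0.00381), Slco1b2 (-0.85, SE 0.21, adjusted p 0.0169) and Slco2b1 (-0.89, SE 0.24, adjusted p 0.0367) fell and Slc22a7 rose (1.23, SE 0.35, adjusted p 0.0437). Leaving out 1 library ended the call of Slc22a7 in 16 of 24 cases and that of Slco2b1 in 12 (adjusted p up to 0.0960 and 0.0899). The hepatocyte markers moved with these falls, 2 of 12 being lower and the median -0.35. With their level as a covariate, where 11.6% of all genes passed, Slco1b2 and Slco2b1 no longer did (-0.44, adjusted p 0.185, and -0.44, adjusted p 0.274), while Abcc2 did, with 0.93 (adjusted p 0.0142), and Slco1a1 still passed (-0.89, adjusted p 0.0448). Against Control Slco1b2 fell (-0.77, SE 0.21, adjusted p 0.0318), a call lost in 8 of 24 such cases (adjusted p up to 0.0820). With the covariate, where 14.7% of all genes passed, it no longer did (-0.50, adjusted p 0.0808), and Abcc2 (1.15, adjusted p 4.24e-04) and Slco1a4 (1.2, adjusted p 0.00716) did. In 3 macrophage libraries Alb, the albumin transcript, was above all others by a wide margin (Control ZT16 and ZT22 replicate 1 and RevScapTKO ZT22 replicate 3, from 802616 to 1606981 RPKTM, the next at 73347). Without them 3 of the 8 passed against Control, Slco1a1 (-1.13, adjusted p 0.00317) and Slco2b1 (-0.98, adjusted p 0.0114) being gained, where 369 of 13933 genes passed. Slc22a7 no longer passed against RevDKO (1.17, adjusted p 0.0854).

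Of the wider transporter list 38 genes were tested in macrophages. Between RevDKO and Control 1 was higher and 0 lower, against 0.574% of all genes called. Between RevScapTKO and RevDKO 0 were higher and 2 lower, against 3%, and between RevScapTKO and Control 1 was higher and 2 lower, against 3.76%.

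JTK_CYCLE called 7 of 9 members rhythmic in RevDKO macrophages, against 25.3% of genes, 4 in RevScapTKO (13.5%) and 1 in Control (17.8%). With the series entered once the counts were 2, 3 and 0, against 5.43%, 2.7% and 3.02% of genes. The cosine regression called no member in these 3 groups, where 0.851%, 0.0239% and 0% of genes passed. In RevDKO, Slco1b2 had a mean of 256 RPKTM at ZT4 and 1259 at ZT22, Slco1a1 had 115 and 594, and Slco1a4 had 25.9 and 186. The mean log2 level of the hepatocyte markers moved with them, from 10.66 at ZT4 to 11.49 at ZT22. Abcc3 and Abcc2 had their lowest means at ZT22 instead (310.2 and 515 RPKTM). The part of hepatocyte RNA in these patterns was not tested.

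The ScapKO tables hold no Control and are described alone. ScapKO hepatocytes had Slco1b2 at 9275 ± 1169 RPKTM, Abcc2 at 5819 ± 1184, Slco1a1 at 4922 ± 576, Abcc3 at 2048 ± 549.5, Slco2b1 at 1212 ± 151 and Slc22a7 at 972 ± 288 (SD, n = 12 each). Slco1a4 followed at 409 ± 166, Slc22a5 at 149 ± 29.0 and Abcc12 at 7.47 ± 5.02. Slc22a7 exceeded Slco1a4 in 12 of 12 ScapKO libraries. Abcc12 was listed at 0 in 2 of 12 libraries and otherwise ran from 2.81 to 14.5 RPKTM. It had means of 12.3 RPKTM at ZT10 and 2.45 at ZT22 and was the 1 member called rhythmic, against 17.8% of genes, and none was called with the series entered once, against 5.31%.

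In ScapKO macrophages Abcc3 stood first, at 1795, 3603 and 4337 RPKTM (lowest, median and highest), above all other members in 11 of 12 libraries. The exception was ZT22 replicate 2, which held 1795 of Abcc3 and 5958 of Abcc2. That library and ZT4 replicate 2 were the highest of the 12 in Abcc2, Slco1a1, Slco1b2, Slco2b1, Slc22a7 and Slco1a4, with 2515 and 3188 RPKTM of Slco1b2 against at most 786 elsewhere. The summed hepatocyte markers were 149448 and 144740.0 RPKTM in these 2 libraries. Since they stand apart, no correlation with the markers is given. JTK_CYCLE called 5 members rhythmic, against 19.9% of genes, and 1, Slc22a7, with the series entered once, against 4.17%. Slc22a5 held 63.7, 104 and 128 RPKTM.

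**Figure D5:**
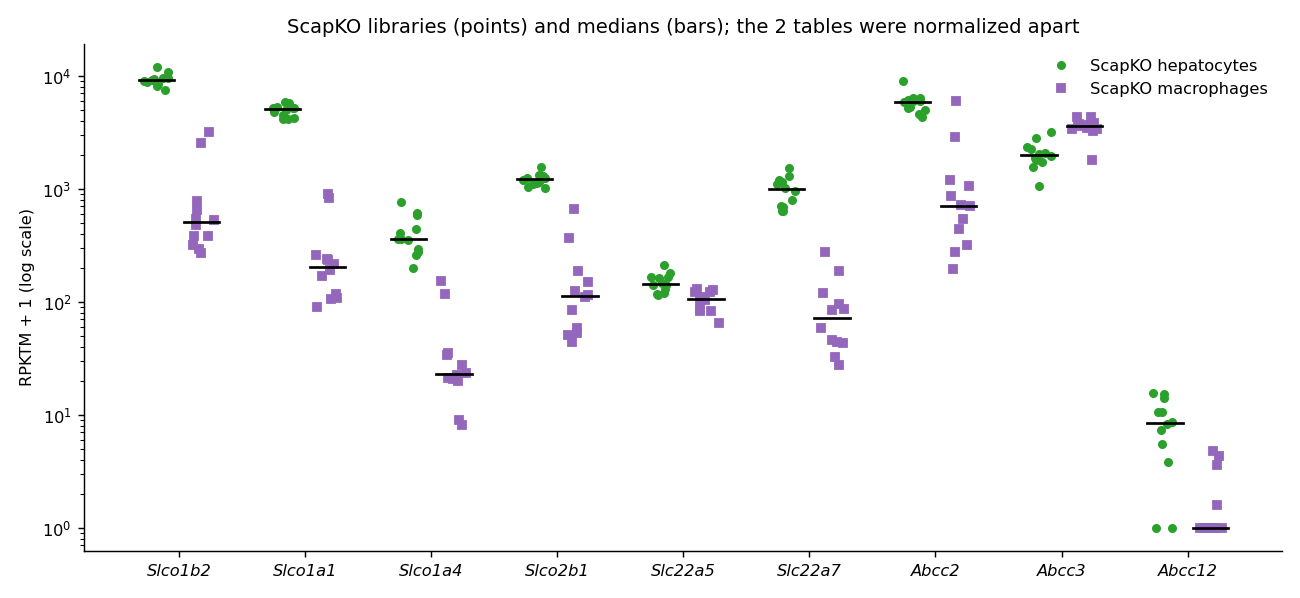
Levels of the 9 transporters (RPKTM + 1, log axis) in the 12 ScapKO hepatocyte libraries (circles) and 12 ScapKO macrophage libraries (squares), with bars for medians; the tables were normalized apart. Most members lie lower in the macrophage table, whereas Abcc3 lies at 1795 to 4337 RPKTM there and at 1065 to 3153 in hepatocytes.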

How the data were processed

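The authors aligned RNA sequencing reads of hepatocytes and liver macrophages to mm9 with STAR, and HOMER was used to count reads of each RefSeq transcript, per the submitters' processing notes and the study's methods, with versions not given in the sources used here. The authors deposited RPKM values scaled up by 10 (RPKTM), quantile normalized within each of 4 tables, which also bars a test between tables and hides sequencing depth. Whether counting used strand is not given.

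From these tables the transcript with the highest mean stood for each gene, genes with at least 3 libraries over 5 RPKTM were kept, and log2(RPKTM + 1) was fitted in limma 3.58.1 (R 4.3.3) with a mean for each genotype and time point, a mean-variance trend and Benjamini-Hochberg adjustment. Contrasts were the mean over the day, each time point, and the 24 h cosine terms. JTK_CYCLE tried periods of 18 and 24 h, with the series entered 2 times as in the study, a setting that counts each library more than once. A gene was called rhythmic at an adjusted p under 0.05 with a best period of 24 h. It also needed a ratio of highest to lowest time point mean over 1.5 and at least 2 libraries over 5 RPKTM. Correlations were tested with 100000 permutations, or exactly among 8 libraries and within time points. Calculations in limma and JTK_CYCLE were tested on simulated data. Python 3.11.15, pandas 2.3.3 and scipy 1.17.1 were used.

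Groups followed the labels' titles. The members and lists were chosen with earlier results of these data known. All 9 members were named, and of the wider list at most the 3 largest rises and 3 largest falls past the threshold in each hepatocyte contrast, and for each member the 2 genes most like it. Slc10a1, Nr1i2 and the regulators' values were given outside that rule. Some members of the regulator list are not reported here, so no counts over that list are given. Alternatives covered the pseudocount (0.1 and 10), the filter, all transcripts in place of 1 for each gene, the replicate number as a block, marker covariates, fewer genotypes and leaving out libraries.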

Additional observations from a re-analysis of the deposited data

How the results depend on the processing

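Depth is unknown, no interval for counting error could be given, and 3 libraries a group limit single time points. Mean-level counts in contrasts with RevScapTKO are over 8 members in this paragraph, Abcc12 having entered these tests through the RevScapTKO libraries alone. Counts over time points in these contrasts include Abcc12, which had to differ there, and are no test of it. With the macrophage marker covariate 2 of 8 passed in RevScapTKO hepatocytes against RevDKO and 2 of 8 against Control. Of all genes 2.32% and 5.49% passed with it, against 26.2% and 35.9% without it. Over single time points the member counts with the covariate were 1 and 3. Without the 4 RevScapTKO libraries, a choice made after seeing the data, 2 of 8 passed against RevDKO. Over time points 10 calls were then made in RevDKO minus Control and 4 in RevScapTKO minus RevDKO. In macrophages 2 of 8 passed in RevScapTKO minus RevDKO with no filter. The hepatocyte covariate gave 1 call over time points in RevDKO minus Control and 2 in RevScapTKO minus RevDKO. Leaving out the 3 libraries with high Alb, also chosen after seeing the data, gave 3 of 8 in RevScapTKO minus Control. Over time points it gave 2 calls for RevScapTKO against RevDKO and 1 against Control. The share of all genes called moved with the setting too, as the values with the covariate show, so these counts do not set the members apart from all genes. The cause of these shifts was not tested. With the replicate block 3 members passed in RevDKO minus Control macrophages and 3 of 8 in RevScapTKO minus Control, and the block ended no call. The numbers were not taken to pair the libraries, because that needed every same-number correlation to be over 0.1 and 45 of 198 hepatocyte and 85 of 198 macrophage pairs were, but 24 and 27 of 36 libraries correlated best with their own number, a hint of pairing from the data, not the design.

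JTK_CYCLE with the series entered once called 0 members in Control hepatocytes, 1 in RevDKO hepatocytes, 0 in ScapKO hepatocytes, 0 in Control macrophages, 2 in RevDKO macrophages and 1 in ScapKO macrophages. The cosine regression called 0 in Control and ScapKO hepatocytes and 0 in the macrophages of all 4 genotypes. Leaving out a replicate at a time, the regression called 0 to 1 in Control hepatocytes, 0 to 2 in RevDKO hepatocytes, 0 to 0 in ScapKO hepatocytes, 0 to 2 in RevDKO macrophages and 0 to 0 in Control, RevScapTKO and ScapKO macrophages.

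Leaving out a replicate at a time moved the time point calls of RevDKO minus Control from 4 to between 1 and 6 in hepatocytes and between 0 and 1 in macrophages. In macrophages the mean-level calls ran from 1 to 3 between RevDKO and Control. With Abcc12 counted, they ran from 3 to 5 between RevScapTKO and RevDKO and from 1 to 4 between RevScapTKO and Control. The time point calls, also with Abcc12, ran from 1 to 4 and 1 to 3 in these last 2 contrasts. Since the share of all genes called also changes when a library is left out, these ranges do not set the members apart from all genes. No mean-level call in hepatocytes was lost.

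Directions that turned belonged to members that had not passed. With the macrophage covariate Slco1a1 came to 0.27 and Slco1b2 to 0.0334 against RevDKO, and Slco1a1 to 0.58, Slco1b2 to 0.0797 and Abcc3 to -0.53 against Control. With the hepatocyte covariate Slco1b2 came to -0.0587 in RevDKO minus Control, and Slc22a5 to 0.0793 and Slco1a4 to 0.29 in RevScapTKO minus RevDKO. Without the high-Alb libraries Slco1b2 came to -0.0839 and Slco2b1 to -0.0941 in RevDKO minus Control. Without the 4 RevScapTKO libraries Slco1a1 came to 0.11 against RevDKO and 0.38 against Control, and Abcc3 to -0.42 against Control. Leaving out a replicate, hepatocyte ranges were -0.00885 to 0.0723 for Slco1b2 and -0.28 to 0.0337 for Abcc12 in RevDKO minus Control, -0.20 to 0.0851 for Slco1a1 in RevScapTKO minus Control and -0.38 to 0.0012 for Slco1a4 in RevScapTKO minus RevDKO. In macrophages they were -0.0423 to 0.18 for Slco1b2 in RevDKO minus Control and -0.11 to 0.0432 for Slc22a5 in RevScapTKO minus RevDKO.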
